A study of Mus musculus with 20 samples.

Results

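The interaction of letrozole with anti-PD-1 is the part of the antibody's effect on a gene that depends on whether the host was also deprived of oestrogen. It was measured in 20 mouse mammary tumours, all 20 of the series, as the antibody difference in letrozole-treated mice minus the antibody difference in vehicle-treated mice, on the log2(normalised count + 1) scale. A positive interaction means that the level with the antibody, relative to the level without it, was higher under letrozole than under vehicle. Of 38996 named genes, 19877 had a normalised count of at least 10 in at least 5 tumours and were tested.

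The groups held 5 tumours each, which the design text calls biological replicates. Letrozole + anti-PD-1 mice were ovariectomised, received letrozole at 1 mg/kg daily for 25 days, and were given 250 µg of antibody by intraperitoneal injection on days 3, 5 and 7 after surgery. Letrozole mice had the ovariectomy and the drug without antibody. Anti-PD-1 mice had sham surgery, daily 5% ethanol in saline and the same 3 antibody doses. Vehicle mice had sham surgery and 5% ethanol in saline. SSM3, a mouse mammary tumour line that carries the oestrogen receptor, was placed in the inguinal mammary gland of immunocompetent 129S6/SvEv mice (given as 129/SvEv in the strain label) of 2 to 4 months, and the tumours were treated from a volume near 150 mm3. The line represents a single tumour. Surgery and drug always went together, so that ovariectomy and letrozole cannot be told apart, and "letrozole" stands for both here. No control antibody is named in the labels, and the day of tumour collection is not given there.

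Letrozole inhibits aromatase, the enzyme that makes oestrogens from androgens, and with ovariectomy it removes the main source of oestrogen. In oestrogen receptor-positive mammary cells, oestrogen drives entry into the cell cycle. PD-1 is an inhibitory receptor of activated T cells. Antibodies to it block its contact with the ligand PD-L1 (Cd274), and interferon gamma from T cells raises PD-L1, the chemokine Cxcl9 and antigen presentation in the cells around them. Since whole tumours were sequenced, fewer cells of a type and less RNA per cell cannot be told apart.

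Libraries held 12495788 to 31393828 reads on the transcripts used. Anti-PD-1 tumours were the shallowest group (median 16020135 reads, against 23352002 in vehicle tumours), while the letrozole pair was alike (26781606 with the antibody and 25250178 without). The labels give no batch. The luminal epithelial list, with keratins 8 and 18 and Epcam, had a mean of 12.22 to 12.87 on the log2 scale in every tumour, as the tissue label implies. A pair of libraries was left out together in some fits. Anti-PD-1 replicate 1 had 20992 genes detected and 12.9% of reads in the top 10 genes. Other libraries had at least 23979 genes and at most 7.75%. Vehicle replicate 3 had a fibroblast list mean of 12.00 against 7.25 to 10.31 in the other vehicle tumours. It was less distinct, since letrozole replicate 5 had 11.85 and vehicle replicate 4 was the low extreme (7.25). Leaving out vehicle replicate 3 lowered the fibroblast, checkpoint, macrophage, chemokine and complement medians most, and leaving out vehicle replicate 4 raised them most. Values without vehicle replicate 3 and anti-PD-1 replicate 1 are given beside several lists.

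No gene showed an interaction that passed the test. With limma, 0 of 19877 genes (0%) had an adjusted p under 0.05, and the smallest adjusted p was 0.999921. edgeR called 0 and DESeq2 called 4 (0.0201%). At an unadjusted p under 0.05 there were 393 genes, or 1.98%, fewer than the 994 that a threshold of 0.05 would pass among 19877 uniform p-values. Of these, 217 were positive (1.09% of genes tested) and 176 negative (0.885%). Over all genes, 48.3% of interactions lay above 0, with a median of −0.01 and quartiles of −0.21 and 0.20. The antibody differences within the arms also gave no call by limma, with 0% of genes called under letrozole (smallest adjusted p 0.700; 628 genes, 3.16%, unadjusted) and 0% called under vehicle (smallest adjusted p 0.9998; 541 genes, 2.72%, unadjusted). edgeR likewise called 0 in each arm, and DESeq2 called 9 (0.0453%) under letrozole and 5 (0.0252%) under vehicle.

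Precision was higher for the better-expressed genes. The median standard error of an interaction was 0.34 and the median half-width of its 95% interval 0.70. For 10337 genes (52.0%) the whole interval lay within 1 log2 unit of 0, which is a 2-fold change, and this held for 8945 of the 9938 genes above the median mean log2 level. A single gene, the predicted gene Gm37504, had groups that did not overlap in either arm and differed in opposite directions (0.00503% of genes). It had 8.11, 6.58, 6.96, 7.28 and 8.49 normalised counts in letrozole + anti-PD-1 tumours, against 11, 10.8, 20.1, 9.99 and 8.63 in letrozole tumours. Anti-PD-1 tumours had 19.1, 91.5, 15.2, 23.8 and 9.57 and vehicle tumours 8.24, 6.81, 9.36, 5.95 and 7.09, an interaction of −2.08 (adjusted p = 0.999921 by limma). These are near the filter of 10.

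**Figure D1:**
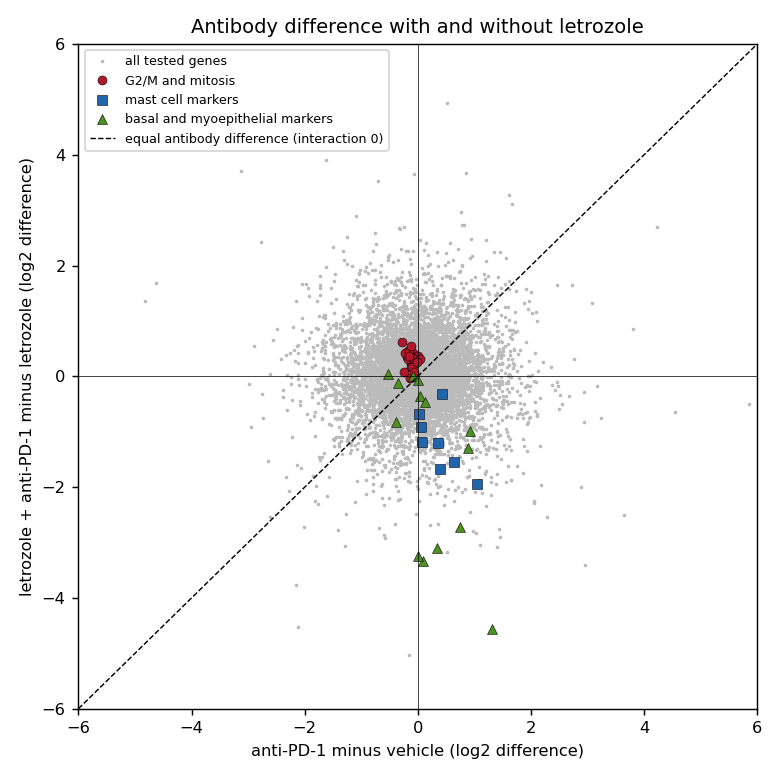
The antibody difference (log2) of each of 19877 tested genes in letrozole-treated mice (vertical axis) against that in vehicle-treated mice (horizontal axis). Dots are genes, coloured symbols mark 3 lists, and distance above or below the dashed line is the interaction. The red G2/M genes sit just above the line and the blue mast cell genes below it, and no gene passed the test.

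Genes of late cell division were the list that lay wholly on the positive side. All 24 tested genes of a G2/M and mitosis list had a positive interaction, against 48.3% of all genes, with a median of 0.40 (all genes −0.01) and a range of 0.11 for Bub3 to 0.90 for Cdc20. The limma test called 0 of 24, and 2 members, Cdc20 and Ccnb1, had an unadjusted p under 0.05, against 1.09% of all genes in that direction. The members come from the same 20 tumours and share their tumour-to-tumour spread, so 24 of 24 is not 24 separate observations. Under letrozole 23 of 24 members were higher on average with the antibody (median 0.33), and under vehicle 2 of 24 were (median −0.12). The S phase list showed no such side: 15 of 25 members were positive, with a median of 0.04, among them replication genes such as Rfc3 (0.36) and Mcm4 (−0.29).

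Cdc20, the activator of the anaphase-promoting complex that lets sister chromatids part, had the smallest p of the list. Its normalised counts were 1589, 1379.8, 2063, 1217 and 1143 in letrozole + anti-PD-1 tumours, against 1187, 920.2, 1266, 576 and 916 in letrozole tumours. Without letrozole they were 1713, 1595, 2097, 1397 and 1764 in anti-PD-1 tumours, against 2250.2, 2133, 1689, 1733 and 2648 in vehicle tumours. The groups overlapped in both arms, and the antibody difference was 0.62 under letrozole and −0.28 under vehicle. The interaction was 0.90 (95% interval 0.33 to 1.47, adjusted p = 0.999921 by limma). Cyclin B1 (Ccnb1), which with Cdk1 starts mitosis, was named after its values were seen. It had 1379, 954, 1646, 733 and 850.1 in letrozole + anti-PD-1 tumours and 1084, 684, 923, 574 and 696 in letrozole tumours. Anti-PD-1 tumours had 1188, 1357, 1595, 1224 and 1386 and vehicle tumours 1923, 1417, 1384, 1237 and 1723, which gave an interaction of 0.64 (0.046 to 1.23). Letrozole + anti-PD-1 replicates 1 and 3 were the highest of their group for both genes. Mki67, the proliferation marker Ki-67, averaged 6738 ± 2872 in letrozole + anti-PD-1 and 4787 ± 1203 in letrozole tumours (SD, n = 5 each), and 7496 ± 1643 in anti-PD-1 and 7905 ± 1636 in vehicle tumours. Its interaction of 0.51 had an interval of −0.18 to 1.20 that takes in 0.

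**Figure D2:**
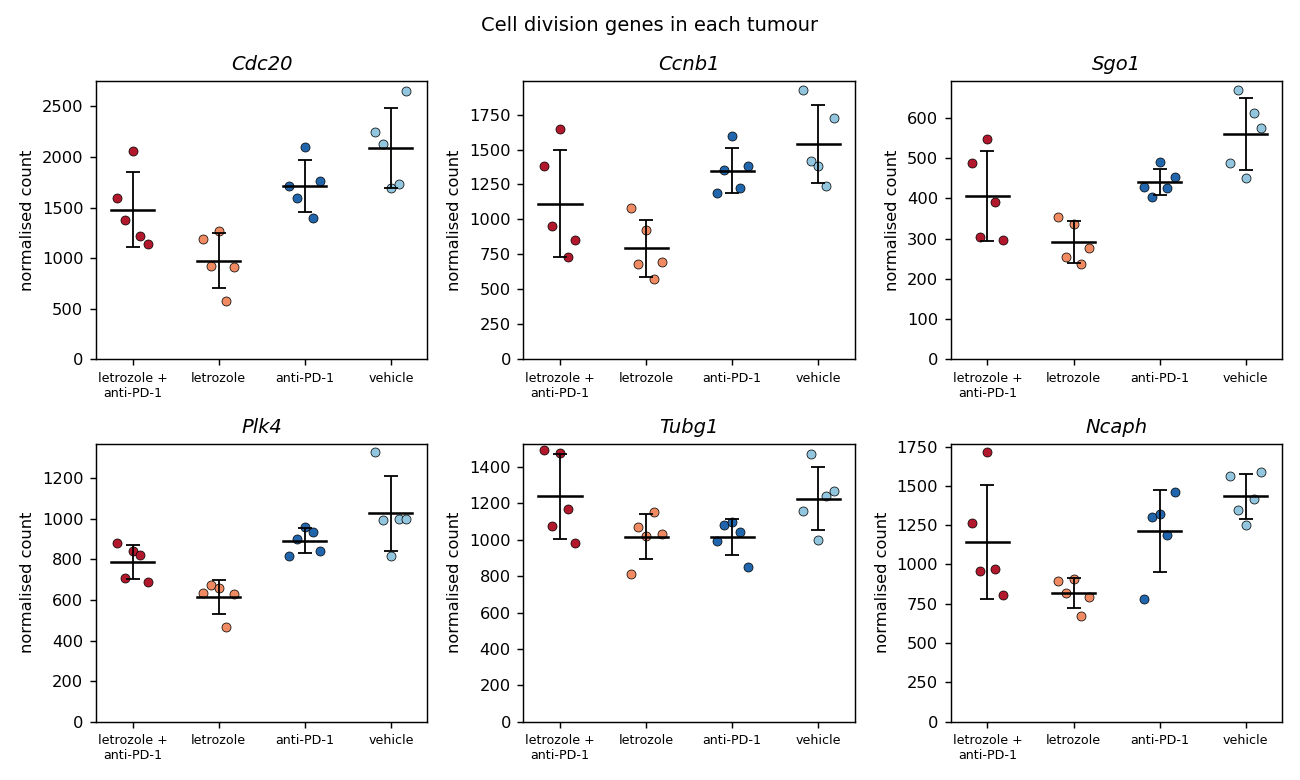
Normalised counts (vertical axes, from 0) of 6 cell division genes in each of 20 tumours; points are tumours, thick lines group means and bars 1 SD (n = 5 per group). Letrozole + anti-PD-1 tumours lie higher than letrozole tumours on average and anti-PD-1 tumours lower than vehicle tumours, with groups that overlap in all but the letrozole arm of Plk4.

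The group averages of the list mean showed the same order, while single tumours overlapped. It was 10.79, 10.15, 10.89, 10.12 and 10.14 on the log2 scale in letrozole + anti-PD-1 tumours, against 10.44, 10.05, 10.40, 9.66 and 9.98 in letrozole tumours. In anti-PD-1 tumours it was 10.73, 10.60, 10.93, 10.61 and 10.78, against 10.98, 10.85, 10.60, 10.78 and 11.03 in vehicle tumours. In the letrozole + anti-PD-1 group 2 of 5 tumours, replicates 1 and 3, were above every letrozole tumour, and the other 3 lay within the letrozole range. Replicates 1 and 3 also had the lowest fibroblast list means of that group (9.67 and 10.09, against 10.37 to 11.35) and the lowest mast cell list means, whose part in the result was not tested. With the fibroblast list mean as a covariate the list median was 0.35, and with the skeletal muscle list mean it was 0.37. All 24 members stayed positive when any 1 of the 20 tumours was left out, with medians from 0.29 without letrozole replicate 4 to 0.50 without letrozole replicate 3. Without vehicle replicate 3 and anti-PD-1 replicate 1 all 24 were positive and the median was 0.47. No fit left out letrozole + anti-PD-1 replicates 1 and 3 together, so how far the list rests on that pair was not tested.

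Mitotic genes of this kind are known to share promoter elements, the cell cycle homology region (CHR), bound by the DREAM and MuvB-B-Myb complexes, and CCAAT boxes, bound by NF-Y. The sequences below are the 150 bases before the annotated start of the 3 list members with the smallest interaction p that had a window (RefSeq, GRCm38.p6), each on its gene's strand and 5′ to 3′. Capitals mark the CHR letters TTTGAA. They also mark CCAAT boxes, written CCAAT on the gene's strand. A box on the other strand reads ATTGG.
Cdc20, chr4:118437344-118437493, minus strand: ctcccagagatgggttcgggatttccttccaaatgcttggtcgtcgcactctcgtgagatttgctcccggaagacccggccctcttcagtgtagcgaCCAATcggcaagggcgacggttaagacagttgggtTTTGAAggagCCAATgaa
Ccnb1, chr13:100786487-100786636, minus strand: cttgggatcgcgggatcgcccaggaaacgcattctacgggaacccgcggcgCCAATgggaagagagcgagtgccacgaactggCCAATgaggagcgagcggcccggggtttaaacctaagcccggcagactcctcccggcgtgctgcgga
Cenpa, chr5:30666736-30666885, plus strand: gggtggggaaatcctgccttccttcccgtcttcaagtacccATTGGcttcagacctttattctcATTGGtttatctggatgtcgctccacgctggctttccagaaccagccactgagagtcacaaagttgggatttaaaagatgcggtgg
The Cdc20 stretch holds TTTGAA between a pair of CCAAT boxes and close to the start. Ccnb1 holds 2 CCAAT and Cenpa, which encodes the histone variant of centromeres, 2 ATTGG. In windows of 250 bases before to 50 after the start, searched on both strands, TTTGAA was found in 16 of 21 list genes with a window (76.2%) and in 20.2% of 27025 genes. CCAAT was found in 18 of 21 (85.7%) and in 41.1% of all genes, and TTCGAA, another CHR form, in 3 of 21 (14.3%) and 1.80%. The searched letters do not overlap each other. The matches describe the sequence only.

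Above the median level, the 10 genes with the smallest p and a positive interaction were Cdc20, Sgo1, Plk4, Tubg1, Ncaph, Fam219b, Mrps18b, Mapk8, Bckdk and Dcdc2b, none of them called. Here and below, groups without overlap in a single arm only describe the gene. The share of all genes with such groups was not counted. Sgo1, shugoshin, which protects cohesion at centromeres, had 489, 303, 548, 391 and 296 in letrozole + anti-PD-1 tumours and 354, 254, 336, 236 and 276 in letrozole tumours. It had 428, 405, 491, 426 and 454 in anti-PD-1 and 489, 671, 450.3, 613 and 575 in vehicle tumours, an interaction of 0.78 (interval 0.28 to 1.28). Plk4, the kinase that starts centriole duplication, had 879.8, 708, 841, 823 and 689.7 in letrozole + anti-PD-1 tumours, all above the 632, 676, 661, 466 and 632 of letrozole tumours. Its level was 818, 902, 961, 937 and 842 in anti-PD-1 and 1327, 993, 815, 1002 and 1000.2 in vehicle tumours, where the groups overlapped, and the interaction was 0.56 (0.19 to 0.92). Tubg1, gamma-tubulin of the centrosome, averaged 1239.7 ± 234 in letrozole + anti-PD-1 and 1017 ± 125 in letrozole tumours, and 1014 ± 98.6 in anti-PD-1 and 1226 ± 172 in vehicle tumours. Its interaction was 0.54 (0.16 to 0.93). Ncaph, a condensin subunit, had an interaction of 0.71 (0.18 to 1.23). The unadjusted p of Cdc20, Sgo1, Plk4, Tubg1 and Ncaph stayed under 0.05 in all 20 removals of a single tumour. These genes were picked by the smallest p in the same tumours, which favours that outcome. It held for 30 of the 117 genes above the median level that had an unadjusted p under 0.05.

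Fam219b had 750.0, 753, 697, 592 and 631 in letrozole + anti-PD-1 and 484, 619, 571, 527 and 501 in letrozole tumours, and 381, 563, 456, 436 and 550.3 in anti-PD-1 and 513, 532, 693, 548 and 518 in vehicle tumours (interaction 0.58). Vehicle replicate 3 was its highest vehicle tumour. Mrps18b, a mitochondrial ribosomal protein gene whose level is uncertain because 59.1% of its exon bases overlap a further gene, had 341, 389, 411, 436 and 399.9 in anti-PD-1 tumours, all below the 484, 578, 506, 506 and 441 of vehicle tumours. Its letrozole pair overlapped, with 409 ± 70.9 with the antibody and 359.6 ± 38.5 without (SD, n = 5 each; interaction 0.52). Mapk8, the stress kinase JNK1, had an interaction of 0.49 (0.12 to 0.86), from 0.16 under letrozole and −0.33 under vehicle. Bckdk, the kinase that restrains branched-chain amino acid breakdown, had 0.45 (0.11 to 0.78), and Dcdc2b, a doublecortin-domain gene, had 0.64 (0.19 to 1.10). All 5, picked in the same way, kept an unadjusted p under 0.05 in each of 20 removals.

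Among the 10 genes with the smallest p and a negative interaction above the median level, several had groups that did not overlap under letrozole. They were picked by that small p, so the separation is no separate result. Pex7, which imports enzymes into peroxisomes, had 338, 310.2, 346, 326 and 367 in letrozole + anti-PD-1 tumours, all below the 449, 399.7, 512, 418 and 416 of letrozole tumours. In the other arm anti-PD-1 tumours had 682, 357, 478, 522 and 342 and vehicle tumours 231, 385, 440.0, 349.7 and 333, an interaction of −0.81 (−1.33 to −0.29). Adcy9, an adenylate cyclase, had 743, 1141, 848, 1102 and 1176 in letrozole + anti-PD-1 tumours, also all below the 1331, 1255, 1242, 1479.8 and 1257 of letrozole tumours. Anti-PD-1 tumours had 1792, 1200.0, 1412, 1307 and 1355 and vehicle tumours 1232, 1214, 1478, 1538 and 1171, which overlapped (interaction −0.50). Dcaf1, a substrate receptor of a Cul4 ubiquitin ligase, likewise had letrozole + anti-PD-1 tumours (2963, 2889.7, 2846, 2923 and 2637) below letrozole tumours (3034, 3241, 3145, 3326 and 3093), with an interaction of −0.28.

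Klf5, a transcription factor of proliferating epithelium, had 1733, 2254, 1419, 1859 and 3059 in letrozole + anti-PD-1 and 2665, 2789.6, 2786, 5418 and 3080.4 in letrozole tumours. It had 2728, 2637, 1806, 2409 and 2841 in anti-PD-1 and 1678, 1992, 1727, 2400.5 and 2938 in vehicle tumours. Letrozole replicate 4 was far above its group, and the interaction of −0.92 was −0.73 without it. Zfp422, a zinc finger gene, had 932, 946, 5423, 1924 and 2332 in letrozole tumours, so replicates 3, 4 and 5 were raised. It had 7188 in anti-PD-1 replicate 1, where the other anti-PD-1 tumours had 893 to 1085. Its interaction of −1.76 was −1.19 without anti-PD-1 replicate 1. The other 5 were Vti1a, a SNARE of vesicle transport (−0.39), Sde2 (−0.49), Prdm2 (−0.37), the muscular dystrophy kinase gene Pomk (−0.45) and Ago4, an Argonaute protein (−0.70). All 10 kept an unadjusted p under 0.05 in each of 20 removals, which their choice by small p favours, and none was called.

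The genes that PD-1 blockade acts through did not resolve an interaction. Pdcd1, the gene of PD-1, was near the limit of counting, with 9.27, 12.3, 3.09, 2.91 and 30.2 in letrozole + anti-PD-1 and 0, 1.80, 0, 23.3 and 27.6 in letrozole tumours. It had 12.7, 0, 5.52, 5.01 and 0 in anti-PD-1 and 0, 0, 30.9, 0 and 0 in vehicle tumours. Vehicle replicate 3 was the single vehicle tumour with any count, and the interaction of 0.21 (−3.24 to 3.67) was −0.79 without it. Cd274, the gene of PD-L1, had 147, 151, 104, 152 and 143 in letrozole + anti-PD-1 and 119.9, 145, 98.7, 132 and 148 in letrozole tumours. It had 21.2, 65.1, 123, 32.6 and 45.8 in anti-PD-1 and 54.9, 29.5, 73, 65.4 and 61.5 in vehicle tumours, and both pairs overlapped. The interaction of 0.29 (−0.74 to 1.32) was 0.01 without anti-PD-1 replicate 1, and 14.1% of the Cd274 exon bases lie in a further gene as well. Cd8a, a chain of the cytotoxic T cell co-receptor, had 2.32, 65.8, 17, 5.82 and 12.3 in letrozole + anti-PD-1 and 0.731, 13.5, 3.83, 60 and 38.8 in letrozole tumours, so that a single tumour, replicate 2, held most of the level of the first group. Anti-PD-1 tumours had 0, 0, 1.38, 7.52 and 13.7 and vehicle tumours 0, 13.6, 30.9, 0 and 6.31. Its interaction of 0.76 had an interval of −2.65 to 4.18 and was −0.31 without vehicle replicate 3 and anti-PD-1 replicate 1.

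Interferon-linked genes were as unresolved. Cxcl9, which attracts T cells, had 27.8, 85.6, 0.773, 29.1 and 15.1 in letrozole + anti-PD-1 and 5.85, 12.6, 1.92, 239 and 193 in letrozole tumours. It had 0, 37.2, 24.9, 41.3 and 16.4 in anti-PD-1 and 67.8, 2.27, 50.5, 59.5 and 26.8 in vehicle tumours, so tumours of 1 group spanned a wide range. Its interaction was 0.44 (−3.42 to 4.29) and −0.54 without anti-PD-1 replicate 1, which was listed at 0. B2m, the light chain of MHC class I, had an interaction of 0.23 (−0.30 to 0.75). Foxp3, the regulator of regulatory T cells, had −0.15 (−0.66 to 0.36) but shares 19.8% of its exon bases with Ccdc22, so its level is uncertain. Gzmb, a granule protease of cytotoxic cells, and Ifng, interferon gamma itself, were below the filter. Gzmb had 4.64, 0, 0, 7.28 and 1.89 in letrozole + anti-PD-1, 7.31, 0, 0, 1.67 and 10.4 in letrozole, 4.24, 0, 0, 0 and 2.73 in anti-PD-1 and 0, 0, 13.1, 0 and 0 in vehicle tumours. Ifng was above 0 in 2 tumours, letrozole + anti-PD-1 replicate 2 (8.23) and vehicle replicate 3 (3.74).

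Pgr separated the letrozole-treated tumours from the others and showed no resolved interaction. Pgr, the progesterone receptor, a classical oestrogen target, had 1618, 1439.9, 733, 1060.3 and 1324 in letrozole + anti-PD-1 and 805, 1327, 1351, 1725 and 1642 in letrozole tumours, against 11765, 16762, 7763, 18215 and 13162 in anti-PD-1 and 14153, 17673, 11568, 17101 and 17633 in vehicle tumours. Every letrozole-treated tumour was below every other tumour, which checks the letrozole labels and not those of the antibody. The Pgr interaction was 0.10 (−0.61 to 0.80), and that of Esr1, the oestrogen receptor, −0.24 (−0.65 to 0.18). Of 20 tested oestrogen and progesterone response genes 11 were positive, with a median of 0.04 and 0 called.

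Immune lists lay close to 0 or below it with all 20 tumours, moved with single libraries, and had 0 members called. T cell markers had 8 of 16 positive (median −0.06), with values such as −1.26 for Cd8b1, the other co-receptor chain, and 1.14 for Trbc1, a T cell receptor chain, and no member at an unadjusted p under 0.05. Cytotoxic and NK genes had 4 of 6 tested positive (median 0.09; 14 in the list), checkpoints 6 of 16 (−0.06), interferon gamma targets 9 of 25 (−0.11), type I interferon targets 9 of 23 (−0.11) and MHC class I genes 8 of 16 (−0.01). Single removals moved the cytotoxic and NK median from −0.39 to 0.40 and the checkpoint median from −0.73 to 0.20. Medians of T cell markers, type I interferon targets and MHC class I genes also crossed 0 in some removals. Those of interferon gamma targets (−0.29 to −0.039) and MHC class II genes (−1.26 to −0.13) stayed below 0 in all 20. Without vehicle replicate 3 and anti-PD-1 replicate 1 positive members were 1 of 6 for cytotoxic and NK genes (median −0.93), 4 of 16 for checkpoints (−0.65), 5 of 16 for T cell markers (−0.29), 5 of 25 for interferon gamma targets (−0.43) and 5 of 23 for type I interferon targets (−0.26). With the fibroblast list mean as a covariate these medians rose instead. They were 0.47 for cytotoxic and NK genes (4 of 6 positive), 0.25 for checkpoints (10 of 16) and 0.36 for T cell markers (10 of 16). Interferon gamma targets then had −0.02 (12 of 25) and type I interferon targets −0.04 (10 of 23). MHC class II genes had 2 of 11 positive and a median of −0.63, which was −1.26 without vehicle replicate 3 and 0.17 with the fibroblast list mean as a covariate. Chemokines (7 of 21, −0.34), macrophage markers (4 of 15, −0.28) and complement genes (4 of 16, −0.32) also lay below 0. Over the removals those medians ran from −0.78, −0.73 and −0.72 without vehicle replicate 3 to −0.038, 0.028 and −0.016 without vehicle replicate 4. With the fibroblast list mean as a covariate they were 0.053, 0.16 and −0.010. Without vehicle replicate 3 and anti-PD-1 replicate 1 positive members were 2 of 21, 0 of 15 and 2 of 16. Vehicle replicate 3 had the highest T cell list mean of its group (5.44, against 2.80 to 3.63), as it had the highest fibroblast mean, and their part in these medians was not tested.

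Rgs1, a regulator of G-protein signalling found in activated lymphocytes and myeloid cells, was named after its values were seen. It had 37.1, 50.2, 27.8, 53.1 and 43.4 normalised counts in letrozole + anti-PD-1 tumours and 35.1, 27.1, 51.7, 31.6 and 75.1 in letrozole tumours, which overlapped. Anti-PD-1 tumours had 82.6, 77.5, 52.5, 114 and 49.2, all above the 22, 9.08, 34.6, 9.52 and 26 of vehicle tumours. The antibody difference was 0.0053 under letrozole and 1.95 under vehicle, and the interaction −1.95 (−3.10 to −0.79). It ran from −2.18 to −1.72 over the 20 removals. DESeq2 called the difference under vehicle (adjusted p = 0.021) and not the interaction (adjusted p = 0.787), and limma called neither. A gene called in an arm and not in the other is not shown to differ between arms.

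**Figure D3:**
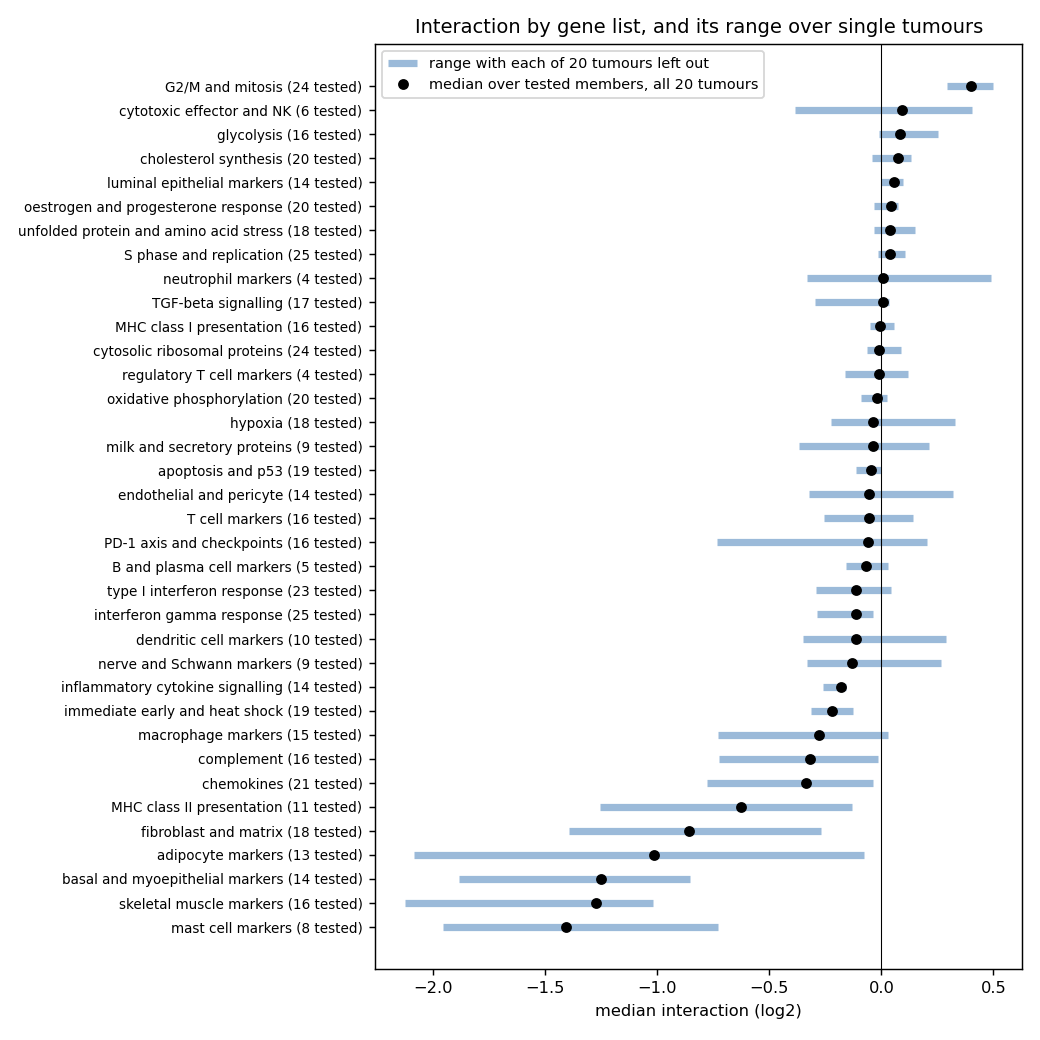
Median interaction (log2) of each of 36 gene lists over its tested members; points are medians with all 20 tumours and bars span the medians obtained with each tumour left out. The G2/M list is alone above 0 throughout, the mast cell, muscle, basal, adipocyte and fibroblast lists lie furthest below 0, and their bars are wide.

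Over the 36 lists, 25 had a median within 0.2 of 0. The sign of the median held in all 20 removals for 13 lists, of which 1 was positive (G2/M and mitosis) and 12 negative. The lowest median belonged to mast cell markers (−1.41), where 0 of 8 tested members were positive and 0 were called. Mast cells are tissue-resident cells that store histamine and proteases. Hdc, the enzyme that makes histamine, had 0, 16.5, 3.09, 17.5 and 20.8 in letrozole + anti-PD-1 tumours and 7.31, 46.9, 17.2, 46.6 and 70.8 in letrozole tumours. It had 25.4, 34.1, 30.4, 20 and 39.6 in anti-PD-1 and 22, 13.6, 56.2, 2.38 and 9.46 in vehicle tumours, and the groups overlapped in both arms (interaction −2.99, −5.42 to −0.57). The mast cell tryptase Tpsb2, chymase Cma1 and carboxypeptidase Cpa3, named after their values were seen, had interactions of −2.18, −2.05 and −1.25, and the receptor kinase gene Kit had −0.71. Tpsb2 had 25.5, 380.1, 6.19, 103 and 102 in letrozole + anti-PD-1 and 93.6, 282, 128, 259.8 and 183 in letrozole tumours, and 121, 121, 243, 188 and 383 in anti-PD-1 and 36.6, 199.7, 481, 73.8 and 107 in vehicle tumours.

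Single tumours carried much of the mast cell pattern. The list mean was 3.70, 7.22, 3.11, 5.97 and 6.09 in letrozole + anti-PD-1 tumours, so replicates 1 and 3 were the lowest of all 20 tumours and replicate 2 was among the highest. It was 5.44, 7.12, 5.93, 6.71 and 6.82 in letrozole, 4.99, 6.09, 6.59, 6.32 and 7.56 in anti-PD-1 and 5.19, 6.20, 7.65, 4.87 and 5.78 in vehicle tumours. The list median was −0.73 without letrozole + anti-PD-1 replicate 3 and −1.95 without replicate 2 of the same group. Without vehicle replicate 3 and anti-PD-1 replicate 1 it was −2.28, and no removal made any member positive.

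Basal keratins were highest in letrozole replicates 2, 4 and 5, while the basal list mean differed more broadly. Of 14 basal and myoepithelial markers 3 were positive (median −1.25) and 0 were called. The list mean was 6.31, 8.14, 7.46, 7.90 and 7.73 in letrozole + anti-PD-1 and 8.19, 9.20, 7.91, 8.96 and 10.80 in letrozole tumours. It was 8.70, 6.34, 8.04, 6.74 and 7.16 in anti-PD-1 and 6.85, 7.91, 8.07, 6.13 and 6.91 in vehicle tumours. The list median ran from −1.88 without anti-PD-1 replicate 2 to −0.85 without vehicle replicate 4. Krt14, a keratin of basal cells, named after its values were seen, had 4.64, 60.9, 9.28, 53.8 and 47.2 in letrozole + anti-PD-1 tumours. In letrozole tumours it had 11, 536, 13.4, 2201 and 4939, so replicates 2, 4 and 5 held the level of that group. Anti-PD-1 tumours had 19.1, 21.7, 226, 17.5 and 8.20 and vehicle tumours 9.16, 36.3, 42.1, 17.8 and 40.2. Krt5, its partner, and Krt17 followed the same tumours, with 32.9, 560.3, 15.3, 578 and 5039.6 and 15.4, 232, 17.2, 825 and 647 in letrozole replicates 1 to 5. Trp63, the basal transcription factor p63, had 0, 16.5, 1.55, 8.73 and 15.1 in letrozole + anti-PD-1 and 8.77, 50.5, 4.79, 94.1 and 312 in letrozole tumours (interaction −3.46, −6.76 to −0.16). Its unadjusted p by limma stayed under 0.05 in 10 of 20 removals. DESeq2 called Krt14 (adjusted p = 0.00803) and Krt17 (0.0215) within the letrozole arm, with Krt1, Krt16 and Krt6b, keratins of stratified epithelium, and did not call any of them in the interaction.

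Lama3, the alpha chain of laminin-332 in the basement membrane of epithelium, was steadier than the keratins. It had 118, 141, 114, 154 and 234 in letrozole + anti-PD-1 tumours, all below the 257, 262, 340.1, 309 and 414 of letrozole tumours. Anti-PD-1 tumours had 199, 260.5, 196, 236 and 304 and vehicle tumours 172, 255, 297, 259 and 363, which overlapped. The interaction was −0.93 (−1.57 to −0.29), with an antibody difference of −1.08 under letrozole and −0.15 under vehicle. It was named after its values were seen. DESeq2 called it within the letrozole arm (adjusted p = 0.0142) and limma did not.

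Skeletal muscle markers had 1 of 16 tested members positive (median −1.27). The list mean was 3.33, 7.47, 3.67, 2.87 and 3.24 in letrozole + anti-PD-1 tumours, high in replicate 2 alone, and 7.47, 3.15, 3.24, 7.07 and 6.82 in letrozole tumours, high in replicates 1, 4 and 5. It was 4.60, 2.93, 3.85, 3.46 and 3.76 in anti-PD-1 and 3.28, 3.02, 3.02, 3.36 and 3.35 in vehicle tumours. Myl1, a fast muscle myosin light chain, had 0, 74.1, 0, 1.46 and 1.89 in letrozole + anti-PD-1 and 67.3, 3.61, 4.79, 79.9 and 50.1 in letrozole tumours (interaction −4.19, −7.55 to −0.83). The list median was −2.13 without letrozole + anti-PD-1 replicate 2. With the muscle list mean as a covariate the mast cell median was −1.10 and the basal median −1.08, and with the fibroblast list mean they were −0.86 and −0.71. Fibroblast and matrix genes, with 1 of 18 positive, had a median of −0.86 that ran from −1.39 without vehicle replicate 3 to −0.27 without vehicle replicate 4, and was −0.17 with the muscle covariate. Adipocyte markers, with 2 of 13 positive, had −1.01, which ran from −2.08 without anti-PD-1 replicate 2 to −0.08 without anti-PD-1 replicate 5. The adipocyte median was −0.031 with the fibroblast covariate and −1.88 with the muscle covariate. Without vehicle replicate 3 and anti-PD-1 replicate 1 the medians were −0.92 for muscle, −1.35 for fibroblast, −1.21 for adipocyte and −1.43 for basal markers, of which 5 of 14 were then positive. The fibroblast and adipocyte lists had 0 members called and 0 at an unadjusted p under 0.05.

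**Figure D4:**
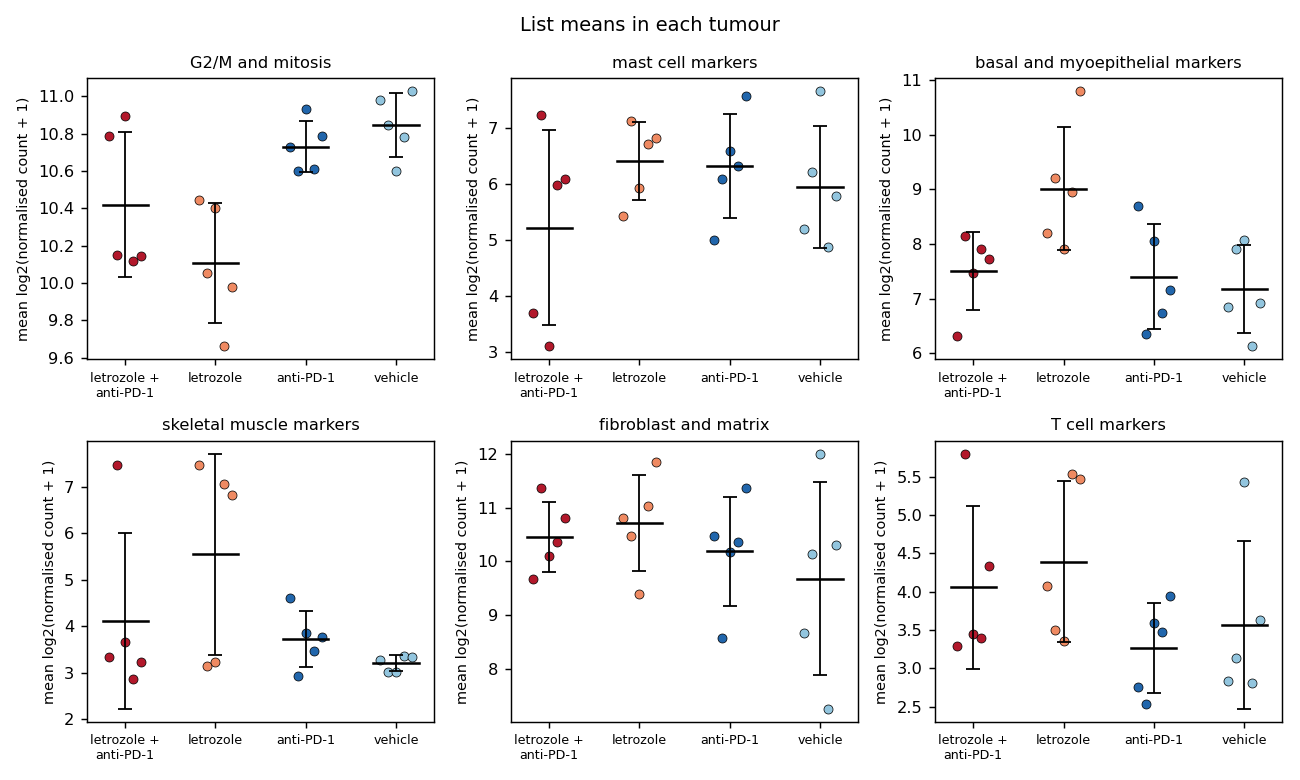
Mean log2(normalised count + 1) over the tested members of 6 lists in each of 20 tumours; points are tumours, thick lines group means and bars 1 SD (n = 5 per group). Axes do not start at 0 and differ between panels. Letrozole + anti-PD-1 replicate 2 and letrozole replicates 1, 4 and 5 alone are high for muscle, and letrozole + anti-PD-1 replicates 1 and 3 are lowest for mast cells.

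Stress and metabolic lists gave few members. Immediate early and heat shock genes had 4 of 19 positive (median −0.22). Hspa1b, an inducible Hsp70, had 95.1, 128, 57.2, 129 and 160.4 in letrozole + anti-PD-1 and 154, 341, 179, 234 and 526 in letrozole tumours, and 104, 243, 157, 142 and 207 in anti-PD-1 and 140.1, 221, 132, 212 and 115 in vehicle tumours. Of its letrozole + anti-PD-1 tumours 4 lay below every letrozole tumour and 1 within the letrozole range, and the interaction was −1.30 (−2.28 to −0.32), under an unadjusted p of 0.05 in all 20 removals. The neighbouring Hspa1a, a near-identical copy whose reads may be split with it, had −2.64 (−4.78 to −0.49). Glycolysis (14 of 16 positive, median 0.08) and cholesterol synthesis (14 of 20, 0.07) had small medians that crossed 0 in some removals. Without vehicle replicate 3 and anti-PD-1 replicate 1 glycolysis had 16 of 16 positive (median 0.32) and cholesterol synthesis 17 of 20 (0.16), while with the fibroblast covariate glycolysis had 4 of 16. Within the sterol list Nsdhl, an enzyme that removes sterol methyl groups, had 0.72 (0.087 to 1.35), with 318 ± 90.8 in anti-PD-1 and 457 ± 116 in vehicle tumours (SD, n = 5 each). Hypoxia targets had 7 of 18 positive (median −0.04), with medians from −0.22 to 0.33 over single removals, and 14 of 18 without both libraries (median 0.40). With the fibroblast covariate they had 5 of 18 positive (median −0.22). Car9, carbonic anhydrase 9, was listed at 0 in 4 of 5 anti-PD-1 tumours and had 22.9, 3.40, 16.8, 4.76 and 21.3 in vehicle tumours. Its interaction of 2.43 kept an unadjusted p under 0.05 in 7 of 20 removals. Ribosomal protein genes had 11 of 24 positive (median −0.01), and 22 of 24 without vehicle replicate 3 and anti-PD-1 replicate 1 (median 0.15).

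The largest interactions above the median level came from genes that differed widely between tumours of 1 group, some nearly off in single tumours and others high in single tumours. Htr1b, a serotonin receptor gene, had 5044, 1497, 3095, 3737 and 4001 in letrozole + anti-PD-1 tumours and 6372, 5.41, 3614, 8297 and 2507 in letrozole tumours, where replicate 2 alone was nearly off. Anti-PD-1 tumours had 30020.4, 7.75, 6.90, 4149 and 5.47, with 3 of 5 nearly off, and vehicle tumours 2037, 4411, 3578, 4049 and 7565. Its interaction of 6.18 (0.13 to 12.23) ran from 4.28 to 8.11 over the removals, and edgeR and DESeq2, which compare means of counts, gave −0.85 and −0.87. Rorb, a nuclear receptor gene, had 20.9, 16.5, 4916, 3915 and 7777 in letrozole + anti-PD-1 and 8774, 19.8, 9706, 5941 and 5555 in letrozole tumours. It had 8595, 7256, 6261, 3489 and 13.7 in anti-PD-1 and 12.8, 7915, 34.6, 7351 and 30 in vehicle tumours, so each group held tumours of both states (interaction −4.89, −11.81 to 2.03). Klhl32, a Kelch-domain gene, spanned 56.8 to 7238 in letrozole + anti-PD-1, 4.79 to 2084 in letrozole, 25.1 to 27947 in anti-PD-1 and 29.7 to 7999 in vehicle tumours (interaction 4.24, −1.44 to 9.92).

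Serpina9, a serine protease inhibitor gene, had 1669, 619, 1032, 41729.9 and 25184 in letrozole + anti-PD-1 tumours, of which replicates 4 and 5 held nearly all, and 283, 697, 1079.7, 741 and 304 in letrozole tumours. Anti-PD-1 tumours had 1572, 1136, 595, 1293 and 198 and vehicle tumours 1061, 1474, 695, 38194 and 292, with replicate 4 far above the rest. The interaction of 3.99 (0.57 to 7.42) was not called by limma but was by DESeq2 (adjusted p = 0.0184). Golim4, a Golgi membrane protein gene, had 4837, 460.5, 1728, 105 and 765 in anti-PD-1 and 63.2, 117, 186, 64.2 and 320.0 in vehicle tumours, with 69.6, 233, 52.6, 442 and 439.7 in letrozole + anti-PD-1 and 1083, 112, 134, 123 and 278 in letrozole tumours. Its interaction was −3.02 and −2.37 without anti-PD-1 replicate 1, its highest tumour. Igfbp2, an IGF-binding protein gene, was listed at 0 in vehicle replicate 4 alone. Its interaction of −2.67 was −0.85 without that tumour. Hoxc9, a homeobox gene, had 7.33 in vehicle replicate 1 against 927 to 1836 in the other vehicle tumours, and its interaction of −2.71 was −1.28 without it. Cytip, a regulator of cytohesin in leukocytes, reached 7054 in letrozole + anti-PD-1 replicate 1, while the rest of its group had 281 to 1419, and 1.77 became 1.13 without it.

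**Figure D5:**
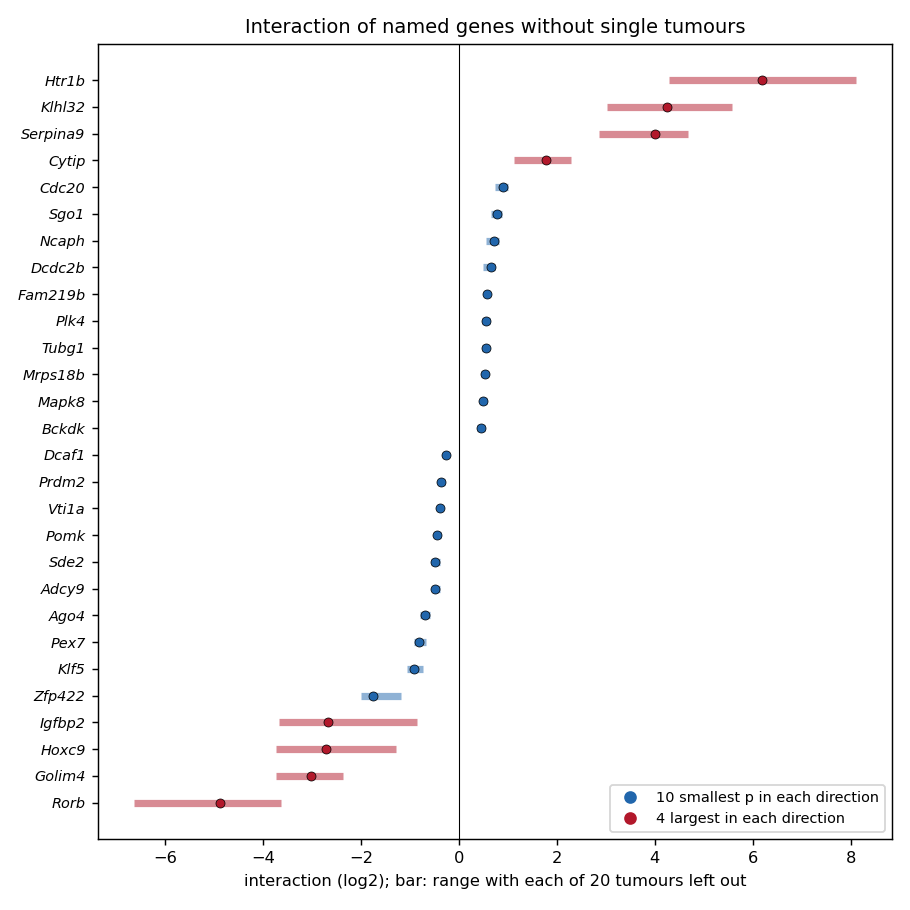
Interaction (log2, horizontal axis) of 28 genes above the median level: the 10 with the smallest p (blue) and the 4 largest (red) in each direction. Points use all 20 tumours and bars span the values with each tumour left out. Each red bar is wider than any blue one, of which Zfp422 has the widest, and no bar reaches 0.

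The 4 interactions that DESeq2 called each rested on a few tumours. Beside Serpina9 they were Fam131c and the predicted genes Gm37541 and Gm9866, the last 3 named after their values were seen. Fam131c had 0, 0, 0, 0 and 0 in letrozole + anti-PD-1 and 25.6, 0, 0.958, 0 and 6.90 in letrozole tumours. It had 104, 2344, 0, 0 and 0 in anti-PD-1 tumours, so replicate 2 held nearly all of it, and 0, 1.13, 14, 0 and 122 in vehicle tumours (DESeq2 adjusted p = 0.000928). Gm37541 had 15.1, 7624, 13584, 0 and 0 in letrozole + anti-PD-1, 9.51, 20.8, 0, 5.83 and 1.73 in letrozole, 19.1, 7.75, 4.14, 0 and 0.684 in anti-PD-1 and 4.58, 53.3, 5604, 45.2 and 0 in vehicle tumours (DESeq2 adjusted p = 0.000928). Gm9866 had 514, 180.2, 7.73, 1.46 and 8.49 in letrozole + anti-PD-1 and 1.73 to 9.02 in letrozole tumours, and 385 in vehicle replicate 4 against at most 12.7 in the rest of both other groups (DESeq2 adjusted p = 0.0476).

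Single tumours decided many of the small p-values but not the absence of calls. With each of the 20 tumours left out in turn limma called 0 interactions every time, and the number at an unadjusted p under 0.05 ran from 319 without letrozole + anti-PD-1 replicate 1 to 630 without vehicle replicate 3. It was 598 without anti-PD-1 replicate 5 and 662 without vehicle replicate 3 and anti-PD-1 replicate 1 together. Of the 393 genes, 144 (36.6%) kept an unadjusted p under 0.05 in all 20 removals, 30 of them among the 117 above the median level, and 0 changed sign in any. The tumour whose removal brought the estimate furthest toward or past 0 was anti-PD-1 replicate 1 for 111 of the 393 genes (28.2%) and for 22.5% of all genes, against 2.29% to 8.42% of all genes for each other tumour. That library is also the shallowest. An interaction of at least 2 log2 units in either direction was found for 447 genes, of which 11 were above the median level. Leaving out the tumour that mattered most shrank it by a median of 25.6%, and 143 of them lost at least 30% and 31 at least 50%.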

How the data were processed

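RNA from 20 tumours was sequenced. The submitters' processing notes name STAR 2.7.10a, DESeq2 and the build GRCm39 (mm39). How reads were counted, on which annotation and whether by strand is not stated there. The deposited table lists 127442 Ensembl transcripts in a unit of signal, that is reads scaled by each library's size factor (0.472 to 1.46). Multiplying back gave whole reads for 100% of values within 0.001, so count tests could be run as alternatives. The planned design assumed genes. Names came from GENCODE vM21 (GRCm38), which matched 93.3% of transcripts, and the transcript with the most reads stood for each gene. Unnamed transcripts were left out. GRCm39 coordinates are not given, and promoters are from RefSeq for GRCm38.p6.

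The main test was limma 3.58.1 with a trend on log2(value + 1), which understates changes of low genes, with the filter of 10 in 5 libraries. A single fit of 4 group means left 16 residual degrees of freedom. P-values are two-sided, adjusted by Benjamini and Hochberg within a contrast at 0.05, and intervals are at 95% and not adjusted. The contrasts of both arms share no tumour. Also tried were pseudocounts (0.5, 5), filters (none, 50), quantile and median scaling, array weights, robust moderation, a replicate block, each arm alone, fibroblast and muscle list means as covariates, other transcript choices, edgeR 4.0.16, DESeq2 1.42.0 and the removal of each library. The fit was tested on simulated counts, with interactions added only to well-expressed genes of low spread. That test does not cover low genes or genes nearly off in single tumours. Promoter letters were searched on both strands.

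The members and the 36 lists were chosen with earlier results of these data known. Named genes are a panel of 12 (1 of them is not reported here), the 10 smallest p and the 4 largest interactions in each direction above the median level (predicted genes left out), and the smallest p of each list where under 0.05. Others are said to have been chosen after their values were seen.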

Additional observations from a re-analysis of the deposited data

Results flagged for a closer look

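Of 200 groups of 5 tumours examined (genes named by rule, library depth and composition), 21 held a tumour flagged by Dixon's test. Genes named after their values were seen were not among these groups. Its distance to the nearest other, divided by the range of the group, exceeded the 95% critical value of 0.71 for 5 samples. Genes were examined as log2(normalised count + 1). Chance flags about 1 in 20 groups of normally distributed values. Groups at 0 in all but 1 tumour always pass, as for Pdcd1, Gzmb, Ifng and Myl1 in vehicle and Car9 in anti-PD-1 tumours. Vehicle replicate 3 stood apart within its group for Pdcd1 (30.9 normalised counts), Gzmb (13.1), Ifng (3.74) and Fam219b (693). Anti-PD-1 replicate 1 stood apart for Zfp422 (7188), for Cxcl9 and Il15, both listed at 0, and for the share of reads in the 10 most abundant genes (12.9%). Il15, the interleukin that sustains NK and memory T cells, had an interaction of −3.13 (95% interval −5.93 to −0.33).

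Anti-PD-1 replicate 5 stood apart for depth (31393828 reads), Car9 (16.4) and Rorb (13.7). Letrozole replicate 4 was low for Plk4 (466) and high for Klf5 (5418), and letrozole replicate 2 was low for Htr1b (5.41) and Rorb (19.8). Among letrozole + anti-PD-1 tumours, replicate 3 was low for Cd274 (104), replicate 2 high for Ifng (8.23) and Myl1 (74.1), and replicate 5 high for Slc7a11 (286), a cystine transporter gene with an interaction of 3.83 (0.05 to 7.62). Vehicle replicate 1 was low for Hoxc9 (7.33), and vehicle replicate 4 was the sole vehicle tumour above 0 for Myl1 (1.19).

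The predicted gene Gm37504 was flagged because every letrozole + anti-PD-1 tumour was below every letrozole tumour while every anti-PD-1 tumour was above every vehicle tumour, with an interaction of −2.08. The limma test of that difference did not pass (adjusted p = 0.999921).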

How the results depend on the processing

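In 37 settings the limma and edgeR fits called 0 interactions and DESeq2 called 4. The number at an unadjusted p under 0.05, 393 as reported, was 1056 with no filter, 208 with a minimum of 50, 662 without vehicle replicate 3 and anti-PD-1 replicate 1, and 319 to 630 with 1 library left out. Within the letrozole arm DESeq2 called 9 genes, and 0 to 1 were called with 1 library left out (Gm47132 without anti-PD-1 replicate 1, adjusted p = 0.0421 by limma). Within the vehicle arm DESeq2 called 5. Tumours with the same number showed little shared variation (3 of 30 pairs correlated above 0.1, and 5 of 20 libraries best with their own number). Such correlations cannot exclude a weaker pairing by number, and the main fit used none. With a replicate block limma called 0 interactions (413 unadjusted) and 1 gene within the letrozole arm (Lama3, adjusted p = 0.0402).

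Of 63 named genes with a fit 57 kept the sign of their interaction in every setting. Pdcd1 was −0.30, Cd274 −0.10, Cd8a −0.31 and Cxcl9 −0.75 without vehicle replicate 3 and anti-PD-1 replicate 1. With array weights Cxcl9 was −0.29. By edgeR and by DESeq2 Cxcl9 was −0.72, and Htr1b −0.85 and −0.87. With 1 library left out Pdcd1 ran from −0.79 to 0.87, Cd274 from 0.0054 to 0.63, Cd8a from 0.051 to 1.35, Cxcl9 from −0.54 to 1.28 and Pgr from −0.089 to 0.27. The causes were not tested. Pdcd1, Cd8a, Gzmb, Ifng and Car9 had fewer than 100 normalised counts in every tumour. So had Hdc, Il15, Myl1, Hspa1a, Ccdc106, Gm47132 and Gm37504. Their levels are low, and the part of depth in them was not tested.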

Other observations

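Several cell types whose markers belong to no comparison above lay near 0 with all 20 tumours. Endothelial and pericyte markers, such as the von Willebrand factor gene Vwf (interaction 0.30), had 6 of 14 tested members positive and a median of −0.06, with 1 to 13 of 14 positive over the 20 removals. Dendritic cell markers had 4 of 10 positive (median −0.11), from the homing receptor gene Ccr7 (−0.69) to Xcr1 (1.39), the receptor of cross-presenting dendritic cells. Regulatory T cell markers had 2 of 4 (−0.01), B and plasma cell markers 2 of 5 (−0.07), neutrophil markers 2 of 4 (0.01), nerve and Schwann markers 4 of 9 (−0.13) and milk and secretory proteins 4 of 9 (−0.04). Without vehicle replicate 3 and anti-PD-1 replicate 1 positive members were 2 of 14 endothelial (median −0.26), 1 of 10 dendritic (−0.47) and 1 of 4 regulatory T cell markers (−0.39), and the milk protein median was −0.46. With the fibroblast list mean as a covariate they were 13 of 14 endothelial (0.27), 7 of 10 dendritic (0.46) and 2 of 4 regulatory T cell markers (0.003). The milk protein median was then −0.03. None of these lists had a member called or at an unadjusted p under 0.05.

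Growth and stress pathways also lay near 0, with 0 members called. TGF-beta signalling had 9 of 17 positive (median 0.01), apoptosis and p53 genes 5 of 19 (−0.05), oxidative phosphorylation 10 of 20 (−0.02), unfolded protein genes 12 of 18 (0.04), inflammatory cytokine genes 5 of 14 (−0.18) and luminal markers 8 of 14 (0.06). Without the same pair of libraries TGF-beta signalling had 3 of 17 positive (−0.26), and with the fibroblast covariate 12 of 17 (0.055).

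The smallest interaction p of all genes belonged to Gm49523, a predicted gene named after its values were seen. It had 242, 120, 57.2, 108 and 105 normalised counts in letrozole + anti-PD-1 tumours and 0, 93.8, 138, 54.1 and 79.4 in letrozole tumours. Anti-PD-1 tumours had 4.24, 0, 78.7, 0 and 4.10, all below the 118, 86.2, 146, 127 and 96.9 of vehicle tumours. The interaction was 6.30 (95% interval 2.96 to 9.64), and it stayed between 5.01 and 7.33 with each library left out. Ccdc106 had an interaction of −1.44 (95% interval −2.26 to −0.63), but all of its exon bases are shared with another gene.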
